A study of Mus musculus with 6 samples.

Results

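A set of 10 genes, of the 24062 in the deposited count files, were followed through 6 libraries of mouse optic nerve RNA. They are the genes named Lyve1, Mrc1, Cd163, F13a1, Pf4 and Stab1, which mark perivascular macrophages, Cd74, H2-Aa and H2-Ab1, which serve MHC class II antigen presentation, and Cd4. They were taken by name, with earlier results of these data known. The nerves came from mice more than 2 months old, all treated with tamoxifen and, per the series' design text, sampled 1 month later. Control library 1 had the genotype Nf1flox/flox, control libraries 2 and 3 had Nf1flox/+, and mutant libraries 1, 2 and 3 had PlpCreERT2;Nf1flox/flox. PlpCreERT2 is a tamoxifen-inducible Cre recombinase driven by Plp promoter sequences, which are active in oligodendrocytes, the myelin-forming cells of the nerve. All 6 libraries thus share tamoxifen and at least 1 floxed Nf1 allele, and the controls carry no Cre in their labels. The labels do not say whether a library holds 1 animal or a pool, nor that libraries came from separate animals. The spread behind each p-value is thus that of 3 libraries a group and may be partly technical.

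Perivascular macrophages sit between vessel and brain or nerve tissue, in the perivascular space and the meninges, and differ from the microglia of the parenchyma. They take up material from fluid and blood through scavenger receptors, and many present peptides to CD4-positive helper T cells. For this the class II alpha and beta chains pair in the endoplasmic reticulum around the invariant chain, travel to endosomes, exchange an invariant chain fragment for a peptide and reach the surface.

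Promoter sequence was found in the RefSeq table (build GRCm38.p6, the mm10 assembly) for 6 of the 10 genes, H2-Aa, Mrc1, Pf4, Cd163, F13a1 and Stab1. The 250 bases before the annotated start are printed, 5′ to 3′ on the gene's strand, for H2-Aa and, because the class II genes are known to share upstream elements, for the class II genes H2-Eb1 and H2-DMb1. Capitals mark TGATTGG, which holds the CCAAT core of the class II Y box read on the other strand, and in H2-Aa also TGACGTCA, a cyclic AMP response element word of the kind found in class II X2 boxes.
H2-Aa (chr17:34287824-34288073, minus strand): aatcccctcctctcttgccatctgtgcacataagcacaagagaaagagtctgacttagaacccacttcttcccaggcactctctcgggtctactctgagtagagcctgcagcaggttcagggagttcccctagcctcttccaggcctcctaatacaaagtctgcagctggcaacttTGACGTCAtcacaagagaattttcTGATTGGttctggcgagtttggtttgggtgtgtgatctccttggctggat
H2-Eb1 (chr17:34305617-34305866, plus strand): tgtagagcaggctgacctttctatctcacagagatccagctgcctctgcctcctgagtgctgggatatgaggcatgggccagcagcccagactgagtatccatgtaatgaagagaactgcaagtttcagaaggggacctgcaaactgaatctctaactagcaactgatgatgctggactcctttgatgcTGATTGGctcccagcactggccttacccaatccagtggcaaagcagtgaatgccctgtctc
H2-DMb1 (chr17:34152941-34153190, plus strand): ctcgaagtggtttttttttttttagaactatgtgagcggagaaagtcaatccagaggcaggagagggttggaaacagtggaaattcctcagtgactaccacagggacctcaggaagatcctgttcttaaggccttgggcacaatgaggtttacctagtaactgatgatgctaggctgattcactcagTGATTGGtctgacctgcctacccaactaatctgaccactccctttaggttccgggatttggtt
TGATTGG began 50 bases before the start in H2-Aa, 61 in H2-Eb1 and 63 in H2-DMb1, so the word stood at a like distance in all 3. Windows of other class II genes are not reported here, so the 3 do not show how common this is among them. The counted gene set has the H2-Aa start at chr17:34287771, downstream of the RefSeq start. From the counted start TGATTGG lies farther away, so the like distance was read from RefSeq starts. On either strand TGATTGG was present in 7.23% of the 32851 windows of this length in the table, and TGACGTCA, 74 bases before the H2-Aa start, in 1.55%. For 2 macrophage genes capitals mark CACTTCCT, the reverse complement of AGGAAGTG, a word with the GGAA core bound by PU.1, a transcription factor of myeloid cells.
Mrc1 (chr2:14229164-14229413, plus strand): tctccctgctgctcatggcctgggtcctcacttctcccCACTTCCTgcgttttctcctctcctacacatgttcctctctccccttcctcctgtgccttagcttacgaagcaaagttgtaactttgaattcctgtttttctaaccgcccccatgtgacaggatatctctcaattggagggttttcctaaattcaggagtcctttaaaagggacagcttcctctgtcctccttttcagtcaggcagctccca
Pf4 (chr5:90772185-90772434, plus strand): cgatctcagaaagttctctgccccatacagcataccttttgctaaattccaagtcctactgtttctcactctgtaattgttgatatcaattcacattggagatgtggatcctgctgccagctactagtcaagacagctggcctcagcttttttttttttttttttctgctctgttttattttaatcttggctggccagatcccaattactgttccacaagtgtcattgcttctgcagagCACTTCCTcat
AGGAAGTG on either strand was found in 3.14% of windows and, among the 6 genes with a window, in Mrc1 and Pf4. The words were picked after the sequences were read, overlap with no other word marked, and are descriptions of letters, not of bound sites.

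Library totals ranged from 13555756 to 23662698 counts. Nf1 itself had 337 to 400 CPM (counts scaled to each library's TMM-adjusted total) in the controls and 226 to 433 in the mutants (adjusted p 0.703 by edgeR for a log2 fold change of -0.23 with SE 0.28), and a count summed over all exons does not show the floxed part. Mutant library 2 stood apart from mutant libraries 1 and 3: Pearson's r of log2 CPM across genes, which are not replicates, was 0.948 to 0.957 between it and the controls, against 0.881 to 0.894 for the other 2. Summed levels of 10 myelin and oligodendrocyte genes, the defining transcripts of this tissue, were 25877 to 26698 CPM in controls and 5425, 33816 and 4662 CPM in mutant libraries 1, 2 and 3. Xist, expressed from an inactive X chromosome, had 34 to 58 counts in control libraries 1 and 3 and 30602 to 72727 in the other 4, so sex markers differed within the controls and were of 1 kind in the mutants. The test results of the 10 genes are therefore given with and without mutant library 2, and in bulk tissue fewer cells of a type and less RNA per cell cannot be told apart.

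Across the 10 genes, Cd4 alone passed the test of mutants against controls, and it was higher. The 9 macrophage and class II genes all had negative log2 fold changes, of -0.53 to -1.26, and 0 of them passed by edgeR's quasi-likelihood test with Benjamini-Hochberg adjustment over 16315 genes. Of those 9, 3 had an unadjusted p under 0.05, Lyve1, F13a1 and Stab1. By the same edgeR test 3133 of all 16315 genes had an unadjusted p under 0.05, the background for such counts below. DESeq2 called 1 of the 9, Lyve1 (adjusted p 0.0443), where it called 7.13% of genes higher and 2.96% lower. Limma-voom called 0 of the 9, where it called 0.539% of genes lower. By limma-voom 8 of the 10 genes, Cd4 included, had an unadjusted p under 0.05, as did 3666 of all 16315. The background was 3.29% of genes called in either direction by edgeR, 2.95% higher and 0.337% lower. The median over the 10 genes was -0.92, where the median over all genes tested was -0.0017 and 50.1% of them were negative. Groups did not overlap in 4 genes that were lower in mutants and 1 that was higher, against 11.5% and 12.5% of all genes tested.

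**Figure D1:**
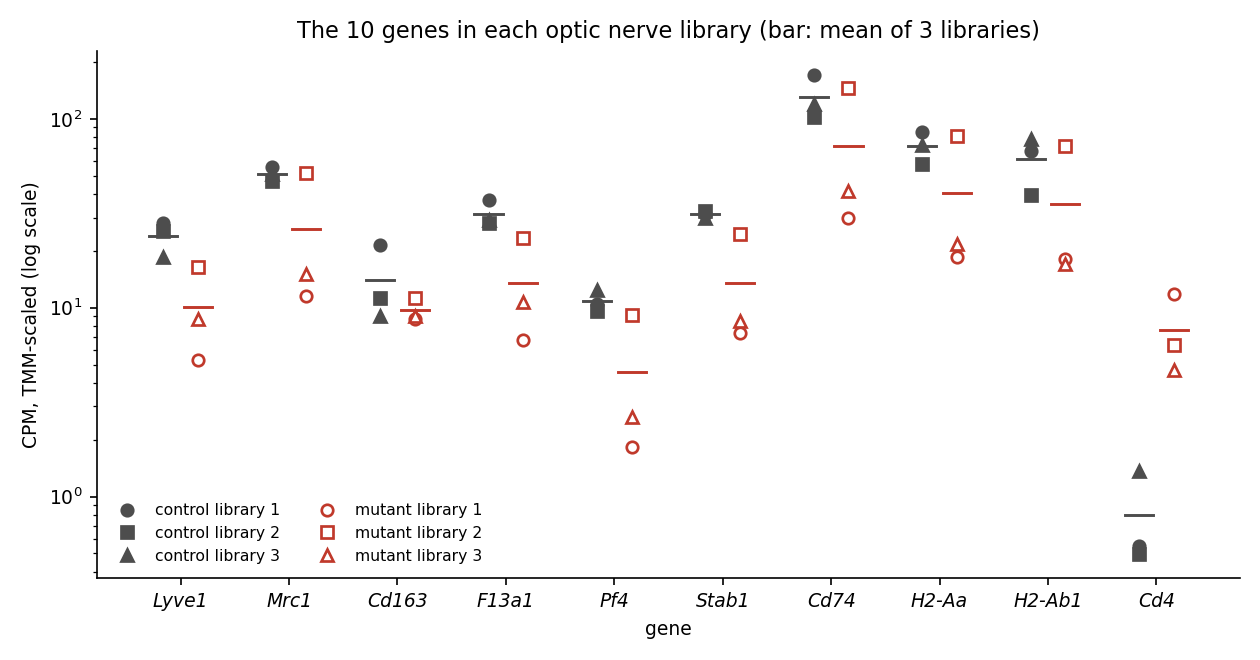
Level of each of the 10 genes in CPM (TMM-scaled, log axis) in 3 control libraries (filled) and 3 mutant libraries (open), with bars at the group means. Mutant library 2 (open square) lies near the controls for 9 genes, while Cd4 is higher in all 3 mutant libraries than in any control.

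Among the scavenger receptors, Lyve1 (chr7:110850607-110862953, minus strand), a hyaluronan receptor of these macrophages and of lymphatic endothelium, had 28.2, 25.3 and 18.6 CPM in control libraries 1, 2 and 3 and 5.29, 16.4 and 8.72 CPM in mutant libraries 1, 2 and 3. All mutant libraries were below all controls, with mutant library 2 close under control library 3. The log2 fold change was -1.25 (by edgeR, adjusted p 0.145 with SE 0.41), from 24.0 ± 4.93 to 10.1 ± 5.69 CPM (SD, n = 3 each).

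Stab1 (chr14:31139017-31168641, minus strand), which encodes stabilin 1, an endocytic receptor, was the steadiest of the 10 genes among controls, with 31.3, 32.5 and 29.9 CPM. Mutant libraries had 7.34, 24.5 and 8.51 CPM, again below every control. Its log2 fold change was -1.22 (by edgeR, adjusted p 0.179 with SE 0.44). Stab1 exons overlap 108 bases of Nt5dc2 exons on the opposite strand, and counting ignored strand, so reads there cannot be assigned to either gene.

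Mrc1 (chr2:14229414-14332023, plus strand) encodes the mannose receptor CD206. It had 55.8, 46.6 and 51.1 CPM in controls and 11.6, 51.8 and 15.1 CPM in mutants, so mutant library 2 lay inside the control range and the other 2 far below it. The log2 fold change of -0.97 (by edgeR, adjusted p 0.337 with SE 0.51) is an average over these unlike libraries.

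Cd163 (chr6:124304651-124330527, plus strand), the receptor for haptoglobin-bound hemoglobin, had another order of libraries than the other 8. Controls had 21.5, 11.2 and 9.04 CPM and mutants 8.74, 11.2 and 9.07 CPM. Control library 1 was high, while the other 5 libraries lay within 8.74 to 11.2 CPM. The highest control was 2.38 times the lowest, and the log2 fold change was -0.53 (by edgeR, adjusted p 0.476 with SE 0.37). It was -0.27 with the Xist level as a covariate and -0.06 without control library 1.

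F13a1 and Pf4 encode secreted proteins that platelets also carry, the A subunit of coagulation factor XIII and the chemokine platelet factor 4. F13a1 (chr13:36867178-37050244, minus strand) had 37.0, 28.1 and 29.0 CPM in controls and 6.74, 23.3 and 10.7 CPM in mutants (adjusted p 0.170 by edgeR for a log2 fold change of -1.21 with SE 0.42). Pf4 (chr5:90772435-90773383, plus strand) had 10.5, 9.66 and 12.4 CPM in controls and 1.83, 9.14 and 2.65 CPM in mutants. Groups did not overlap for either gene, and in both mutant library 2 lay closer to the lowest control than to the other 2 mutant libraries. For Pf4 the log2 fold change was -1.26 (by edgeR, adjusted p 0.266 with SE 0.57), with only 34, 121 and 38 counts behind the mutant values.

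The class II genes formed a set with nearly the same order of libraries. Cd74 (chr18:60803849-60812652, plus strand), the invariant chain, had 171, 103 and 120 CPM in controls and 29.9, 145 and 41.3 CPM in mutants. H2-Aa (chr17:34282751-34287771, minus strand), the I-A alpha chain, had 84.8, 57.8 and 72.2 CPM in controls and 18.5, 81.4 and 21.7 CPM in mutants. H2-Ab1 (chr17:34263227-34269418, plus strand), the I-A beta chain, had 67.1, 39.6 and 77.8 CPM in controls and 18.2, 71.6 and 17.0 CPM in mutants. For each of the 3, mutant library 2 was inside the control range and mutant libraries 1 and 3 were below the lowest control. Log2 fold changes were -0.87 (SE 0.54), -0.82 (SE 0.52) and -0.79 (SE 0.55), with edgeR adjusted p of 0.419, 0.429 and 0.468. With the Xist level as a covariate they were -0.53, -0.51 and -0.14, with edgeR adjusted p of 0.927, 0.927 and 0.982. Class II genes belong to a multigene family, so reads of near-identical stretches may be placed with less certainty, and a microRNA gene, Mir5107, overlaps 12 bases of Cd74 exons.

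Ratios between the class II genes within a library were compared next. On the scale of CPM per kilobase of exon, the ratio of H2-Aa to H2-Ab1 was 1.04 to 1.63 in controls and 1.14 to 1.43 in mutants. Cd74 stood at 1.25 to 1.52 times H2-Aa in controls and 1.22 to 1.44 times in mutants, and at 1.3 to 2.19 times H2-Ab1 in controls and 1.39 to 2.05 times in mutants. The ratio of the alpha to the beta chain in the mutants thus lay inside its control range, although the level of each chain differed by several fold between mutant libraries.

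**Figure D2:**
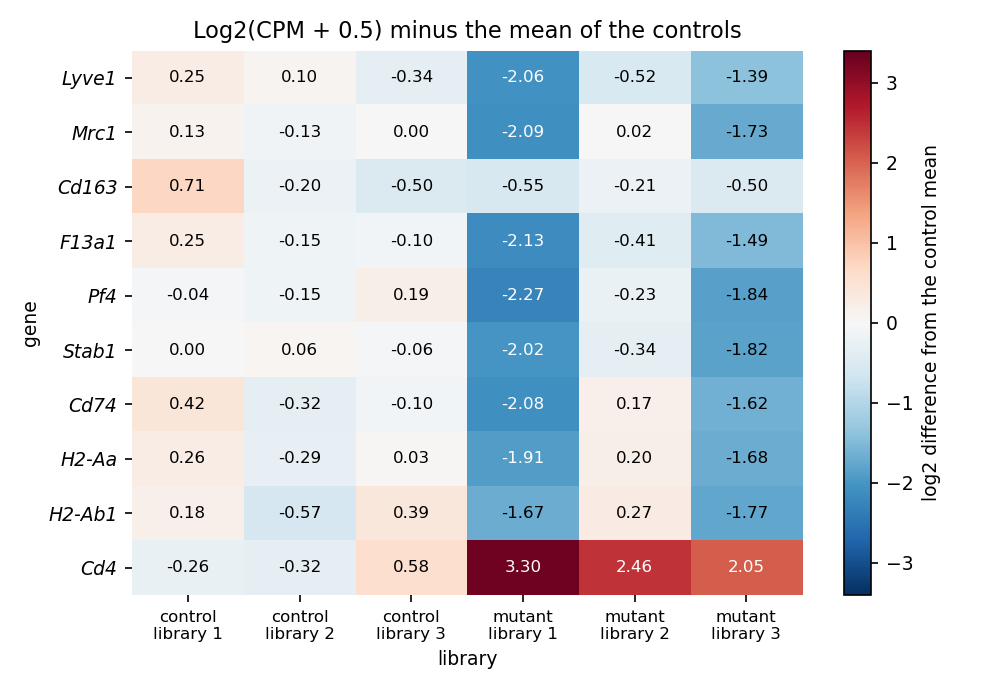
Difference of log2(CPM + 0.5) from the mean of the 3 controls, for 10 genes (rows) in 6 libraries (columns). Mutant libraries 1 and 3 are negative for 9 genes, at -2.27 to -0.50, mutant library 2 is between -0.52 and 0.27 for these genes, and Cd4 is at 2.05 to 3.30 in the mutants.

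Levels between genes were compared in controls as CPM per kilobase. Cd74 had 92.7 ± 25.1, H2-Aa 67.0 ± 12.7 and H2-Ab1 51.5 ± 16.5 (SD, n = 3 each), higher levels than 97.3%, 95.8% and 93.9% of genes tested. Each of these 3 overlapped its neighbour in the order of levels. Pf4 followed at 18.4 ± 2.35, apart from H2-Ab1 above and Mrc1 below. Its place depended on division by its exon length of 588 bases. In plain CPM its control mean was 10.8, below Cd163 at 13.9, Lyve1 at 24.0 and Stab1 at 31.2. Mrc1 at 9.62 ± 0.861, Lyve1 at 9.22 ± 1.89 and F13a1 at 7.98 ± 1.25 overlapped one another in sequence. Below them came Stab1 at 3.91 ± 0.165 and Cd163 at 3.10 ± 1.49, which overlapped, and then Cd4 at 0.260 ± 0.158, a level above that of only 2.54% of genes tested. The class II transcripts were therefore the most abundant of the 10 and Cd4 the scarcest in control nerve.

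Cd4 (chr6:124864693-124888209, minus strand) encodes the co-receptor of helper T cells, which binds class II molecules and is also present on some myeloid cells. A shorter Cd4 transcript is known from mouse brain, and counts per gene do not show which transcript was read. Controls had 11, 12 and 33 counts and mutants 219, 84 and 67, or 0.545, 0.498 and 1.37 CPM against 11.8, 6.35 and 4.67 CPM. All mutant libraries were above all controls, mutant library 2 included. Cd4 rose by 3.23 on the log2 scale (by edgeR, adjusted p 0.0246 with SE 0.59), from 0.804 ± 0.490 to 7.61 ± 3.74 CPM (SD, n = 3 each). The call was lost without control library 1, 2 or 3 (edgeR adjusted p 0.151, 0.143 and 0.0541) and without mutant library 1 (adjusted p 0.109), with log2 fold changes of 2.76 to 3.85. In those fits, in the same order, 0.306%, 0.488%, 0.675% and 0.977% of genes tested were called, against 3.29% over all libraries. When the Xist level entered the model as a covariate, the log2 fold change of Cd4 was 3.99 and the edgeR adjusted p 0.314. In that model 0 of all 16315 genes were called. Xist was high in all 3 mutant libraries and in 1 control, library 2, whose 0.498 CPM of Cd4 rested on 12 counts. With 1 such control, sex cannot be separated from genotype, and the part of sex in the Cd4 result was not tested further.

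Other genes that mark T cells were scarce. Of 17 T cell genes, Cd4 not among them, 8 had counts enough for the test, and none of the 8 (0) was called. The median log2 fold change of the 8 was 0.30, with 5 positive and 3 negative. An unadjusted p under 0.05 was seen for 1, Thy1 (adjusted p 0.0854 by edgeR for a log2 fold change of 1.60), a gene that neurons also express. DESeq2 called 1, also Thy1. Cd3e, a subunit of the T cell receptor complex, had 1.95 to 3.65 CPM in controls and 0.863, 3.48 and 0.488 CPM in mutants. Cd3d had 0.415 to 0.871 CPM in controls and 0.054 to 0.279 CPM in mutants, and Cd3g and Cd247 were at or under 1.21 CPM in all 6 libraries. Cd8a, Foxp3, Lck and Il7r had positive log2 fold changes, of 0.55, 0.48, 0.39 and 0.21, with groups that overlapped. The summed level of the 17 genes was 56.9 to 89.2 CPM in controls and 101 to 297 CPM in mutants, most of it Thy1. Without mutant library 2, Thy1 was called higher and Cd3e lower (log2 fold change -2.10, adjusted p 0.0293).

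Many neuron genes were also called higher in the mutants. All 10 tested genes of striatal projection neurons were called higher, with summed levels of 155 to 216 CPM in controls and 2465, 1661 and 1735 CPM in mutant libraries 1, 2 and 3. Of 10 general neuron genes 6 were called higher, and the sum of the 10 was 705 to 1284 CPM in controls and 7202, 2193 and 5549 CPM in mutants. The 4 that did not pass included Tubb3, at 49.5 to 63.2 CPM in controls and 113, 52.7 and 41.9 CPM in mutants, and Slc17a7, at 0.249 to 0.644 CPM in controls and 140, 0.0756 and 21.6 CPM in mutants. The part of neuron genes in the Cd4 result was not tested. The 3 genes with the pattern most like Cd4 over the 6 libraries were Agap2, Lingo3 and Rab15, with root mean square differences of 0.12, 0.18 and 0.21 in centred log2 CPM. Log2 fold changes of these genes were 2.65, 2.77 and 2.69.

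Without mutant library 2, 9 of the 10 genes passed, 8 lower and Cd4 higher, where the background was 27.0% of 16857 genes called in either direction, 13.2% higher and 13.8% lower. In that fit Pf4 fell by 2.27 (SE 0.37), Stab1 by 1.97 (SE 0.26), Mrc1 by 1.93 (SE 0.25), F13a1 by 1.84 (SE 0.30) and Lyve1 by 1.78 (SE 0.33) on the log2 scale. Cd74 fell by 1.87 (SE 0.28), H2-Aa by 1.83 (SE 0.25) and H2-Ab1 by 1.80 (SE 0.31). Their edgeR adjusted p ranged from 0.000299 for Mrc1 to 0.00258 for Lyve1. Mutant library 2 was singled out after its likeness to the controls was seen, so p-values without it, here and below, are descriptive only. Cd163 had -0.64 (SE 0.39, adjusted p 0.261) and Cd4 rose by 3.35 (SE 0.59, adjusted p 0.00182). The 8 genes that passed as lower in this fit were at 16.9% to 36.3% of the control mean in mutant libraries 1 and 3 and at 68.2% to 116% in mutant library 2. With mutant library 1 or 3 left out in place of library 2, 0 of the 9 macrophage and class II genes passed. In those fits, in the same order, only 0.0238% and 0.0418% of all genes tested were called lower.

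**Figure D3:**
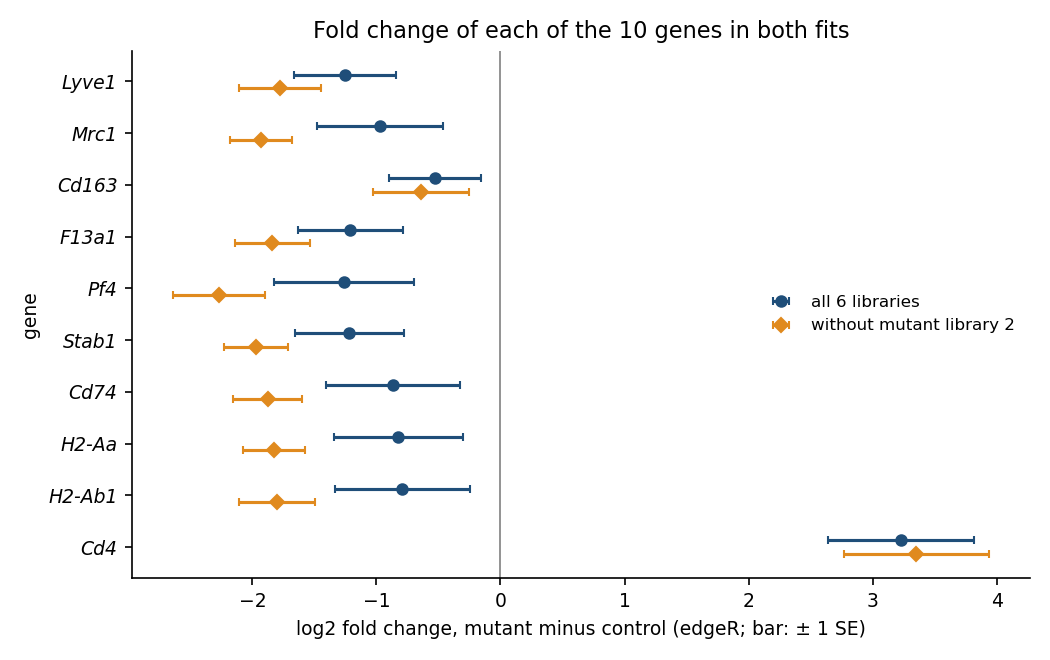
Log2 fold change of mutants against controls for each gene, with bars of 1 SE from edgeR, over all 6 libraries (circles) and without mutant library 2 (diamonds). Leaving out that library moves 8 genes to between -2.27 and -1.78, while Cd163 and Cd4 move little.

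A wider list of 25 perivascular and border macrophage genes, which holds 6 of the 10, was read beside them. Of 19 tested 0 passed by edgeR, 8 had an unadjusted p under 0.05 and 17 were negative, with a median log2 fold change of -1.21. DESeq2 called 5, all lower, Lyve1, Cbr2, Dab2, Maf and Fcna, and limma-voom 0. Cbr2, a carbonyl reductase gene, had 10.4, 12.2 and 14.2 CPM in controls and 4.32, 5.89 and 2.65 CPM in mutants, with mutant library 2 at 5.89 CPM also well below the controls (adjusted p 0.0657 by edgeR for a log2 fold change of -1.52 with SE 0.37). Dab2, an endocytic adaptor gene, had -1.40, the transcription factor gene Maf -1.44 and the ficolin gene Fcna -2.06. Ms4a7 and Cd209a had positive values, of 0.20 and 0.40, with edgeR adjusted p of 0.911 and 0.733. Without mutant library 2, 13 of 20 tested passed, all lower, including the folate receptor gene Folr2 at -2.52 and the sialoadhesin gene Siglec1 at -2.12, and the median was -1.92.

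The other genes of class II presentation did not share 1 size of difference. Of 18 listed, 17 were tested, 0 passed by edgeR, 3 had an unadjusted p under 0.05, and the median was -0.67, with 15 negative. DESeq2 called 1, Ifi30. Among the genes that load or cut peptides, Ifi30, a thiol reductase gene, had -1.70 (by edgeR, adjusted p 0.153 with SE 0.57). Ctss, the protease that trims the invariant chain and is also abundant in microglia, had -0.67 (SE 0.26, adjusted p 0.206). H2-DMb1, a subunit of the peptide exchange factor DM, had -1.31, while its partner H2-DMa had -0.01. The regulators had small differences that did not pass. Ciita, the class II transactivator, had -0.30 (SE 0.37), and the factors of the X box Rfx5, Rfxap and Rfxank had -0.03, 0.40 and -0.23. March1, a ubiquitin ligase gene that lowers surface class II, had 22.7 to 24.2 CPM in controls and 32.0 to 35.7 CPM in mutants, a log2 fold change of 0.52 (by edgeR, adjusted p 0.230 with SE 0.21), with groups that did not overlap.

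Without mutant library 2, 7 of the 17 presentation genes passed, all lower. They were Cd74, H2-Aa, H2-Ab1, the second beta chain gene H2-Eb1 at -1.98, H2-DMb1 at -2.65, Ifi30 at -2.73 and Ctss at -0.90. Ciita had -0.49 (edgeR adjusted p 0.393), Rfx5 0.11 (adjusted p 0.772) and March1 0.56 (adjusted p 0.0837). Genes that respond to interferon gamma, a known inducer of class II, had 0 of 14 tested genes called over all libraries, 2 at an unadjusted p under 0.05 and a median of -0.60. DESeq2 called 1 of them, Irf1, and without mutant library 2 edgeR called 6 lower. Ifng itself was at or under 0.083 CPM in each library.

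**Figure D4:**
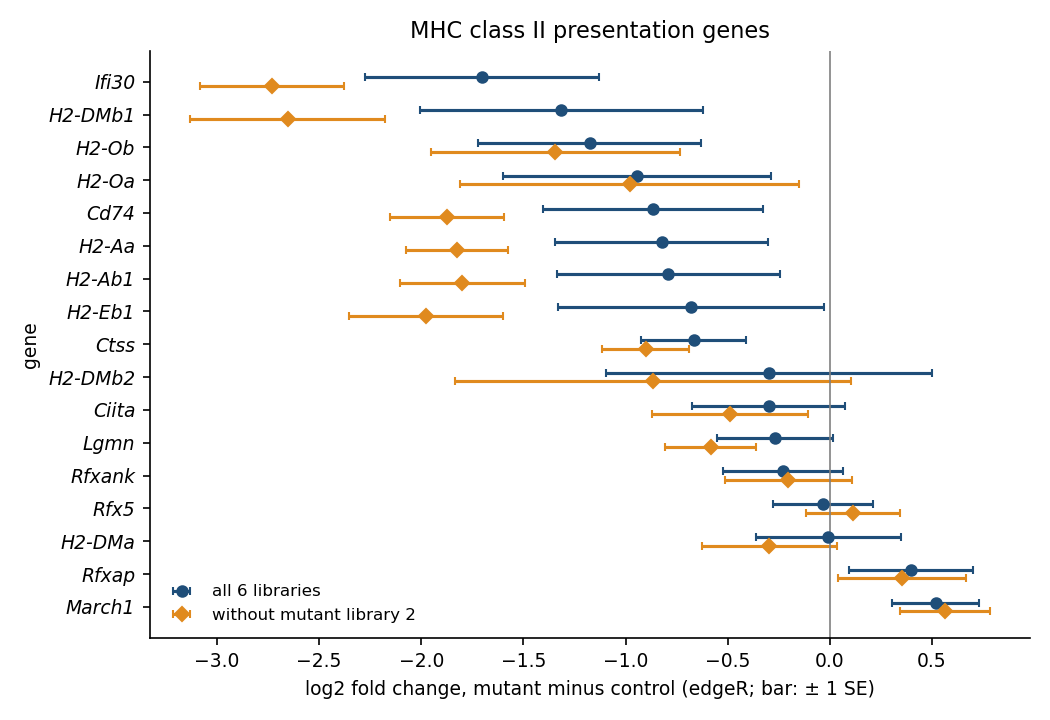
Log2 fold change of 17 class II presentation genes, mutants against controls, with bars of 1 SE from edgeR, over all libraries (circles) and without mutant library 2 (diamonds). H2-Aa, H2-Ab1, H2-Eb1, Cd74, Ifi30 and H2-DMb1 move to -1.80 or below without that library, while Ciita, Rfx5, Rfxap and Rfxank stay between -0.49 and 0.40.

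Microglial genes had values closer to 0 than the macrophage genes. Of 14 tested, 0 passed by edgeR, 3 had an unadjusted p under 0.05 and the median was -0.43, with 11 negative and 3 positive. DESeq2 called 1, Sparc, and other cells of the nerve express that gene too. The mean log2 level of the microglial list was -0.53, 0.10 and -1.11 from the control mean in mutant libraries 1, 2 and 3. It was -1.61, -0.13 and -1.48 for the perivascular and border macrophage list and -0.84, 0.02 and -0.99 for the class II presentation list. Genes shared by macrophages and microglia, such as Csf1r, had 0 of 14 passing by edgeR or DESeq2, 1 at an unadjusted p under 0.05, and a median of -0.49. All 14 of these were negative. P2ry12, a microglial purinergic receptor gene, had 47.6 to 57.1 CPM in controls and 55.9, 62.9 and 36.2 CPM in mutants. Tmem119, of the same list, had 33.7 to 36.6 CPM in controls and 22.2, 48.1 and 13.5 CPM in mutants. Measured against the mean log2 level of the microglial list in the same library, 8 of the 9 macrophage and class II genes stood at -1.14 to -1.74 in mutant library 1, -0.62 to 0.17 in mutant library 2 and -0.73 to -0.28 in mutant library 3, relative to the control mean. Control libraries ranged from -0.53 to 0.45 for the same 8 genes. Cd163, the other gene, had -0.01, -0.31 and 0.62. The same reading was not made for all genes tested, so it is not shown whether these values are particular to the 8 genes. Before such scaling, the mean log2 level of the fibroblast list was -2.47, -0.63 and -2.34 from the control mean in mutant libraries 1, 2 and 3. For the myelin and oligodendrocyte list it was -2.10, 0.18 and -2.57. Without mutant library 2, 6 microglial and 8 shared genes were called lower. The difference between the lists was not tested.

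Markers of other cell types that express some of the 10 genes were read in the same libraries. For lymphatic endothelium, which also makes Lyve1, Ccl21a had 0 counts in all 6 libraries, Mmrn1 had 0 to 1.08 CPM and Stab2 0.971 to 2.02 CPM, and the summed level of the 7 genes was 245 to 268 CPM in controls and 167 to 231 in mutants. Prox1, which neural cells also express, and Reln made up most of that sum. Of the 5 tested, 0 passed by edgeR or DESeq2, and 1, Pdpn, was at an unadjusted p under 0.05. Pdpn had 58.6, 29.1 and 39.1 CPM in controls and 10.7, 31.4 and 13.1 CPM in mutants, a log2 fold change of -1.20. Flt4, at -0.67, had 5.85 to 8.50 CPM in controls and 3.56 to 5.67 CPM in mutants. Of the 5, 3 were negative and 2 positive. For platelets, which carry Pf4 and F13a1, the summed level of 10 genes was 7.01 to 17.7 CPM in controls and 4.53 to 7.40 CPM in mutants. Ppbp, a platelet chemokine gene, had 3.47, 7.59 and 0.871 CPM in controls and 0.486, 0.227 and 0.349 CPM in mutants (adjusted p 0.0647 by edgeR for a log2 fold change of -3.44), and DESeq2 called this gene lower. By edgeR 0 of the 6 platelet genes tested passed, and 1 was at an unadjusted p under 0.05. B cell and dendritic cell lists, whose cells express class II, summed to 5.39 to 8.22 and 54.2 to 94.9 CPM in controls and 3.56 to 6.80 and 29.8 to 63.3 CPM in mutants. Of 4 B cell and 7 dendritic cell genes tested, edgeR called 0, with 1 in each list at an unadjusted p under 0.05, and DESeq2 called 1 in each, Cd79a and Clec9a. The part of these cells in the results was not tested.

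Lists of fibroblasts and endothelium, cells of the same perivascular and meningeal sites, were also low in mutant libraries 1 and 3. The 10 fibroblast genes summed to 2300 to 3093 CPM in controls and 407, 1800 and 514 CPM in mutant libraries 1, 2 and 3, with a median log2 fold change of -1.62 and 0 of 10 passing by edgeR, 10 at an unadjusted p under 0.05 and 8 by DESeq2. The 10 endothelial genes summed to 324 to 352 CPM in controls and 128, 248 and 134 CPM in mutants, with 1 of 10, Kdr, passing as lower (adjusted p 0.0418 by edgeR for a log2 fold change of -1.54), 7 at an unadjusted p under 0.05 and 5 called lower by DESeq2. Of the 10 myelin and oligodendrocyte genes 0 passed by edgeR, 1 was at an unadjusted p under 0.05, and DESeq2 called 1, Cldn11. Without mutant library 2, 10 fibroblast, 9 endothelial and 10 myelin genes were called lower. The genes with patterns most like the macrophage genes included Col12a1, Msn and S1pr3 for Stab1, Tgfbi and Emilin1 for Mrc1, Spp1 for Lyve1, and Eya2 for F13a1, at root mean square differences of 0.06 to 0.12 in centred log2 CPM over 6 libraries. H2-Aa and Cd74 were nearest to each other, at 0.11, and H2-Ab1 was nearest to the lysozyme gene Lyz1, at 0.13. How far the tissue makeup of each library enters the values of the 9 genes was not tested.

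**Figure D5:**
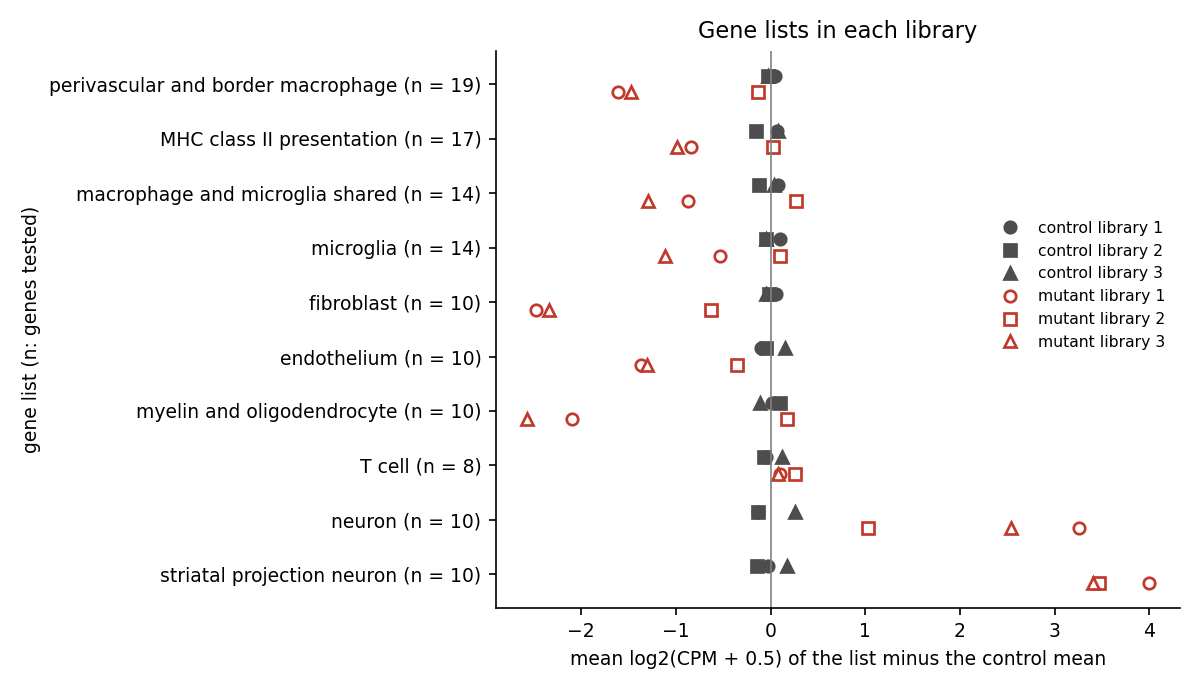
Mean log2(CPM + 0.5) of the tested genes of 10 lists in each library, relative to the mean of the controls, for controls (filled) and mutants (open). Macrophage, class II, microglial, shared, fibroblast, endothelial and myelin lists are low in mutant libraries 1 and 3 and nearer the controls in mutant library 2. Both neuron lists are high in all 3 mutant libraries.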

How the data were processed

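Raw fragment counts per gene were deposited for 6 optic nerve libraries. The authors counted paired reads over exons of the UCSC mm10 gene set, without strand, with featureCounts 1.4.6-p4, per the file headers. TopHat and DESeq2 are named in the submitters' processing notes. RNA was amplified with the NuGEN Ovation v2 system and prepared with Nextera XT, as the labels' protocols state.

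The test was edgeR 4.0.16 in R 4.3.3 (quasi-likelihood F test, TMM scaling, filterByExpr with a minimum count of 10, no covariate), fitted to all genes, with Benjamini-Hochberg adjusted p under 0.05 over 16315 genes. CPM uses TMM-scaled library sizes. SE is the log2 fold change divided by the square root of F. A count of 1 was worth 0.0415 to 0.0756 CPM. All library pairs differed beyond sampling noise (chi-square per degree of freedom at least 45.6).

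The fit was tested on simulated counts, where it missed most genes given changes of the size seen in the 9 macrophage and class II genes. Some of the genes it called there had been given no change.

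The 10 genes, the lists and the alternatives were chosen with earlier results of these data known. The naming rule took the 10 genes, list genes that passed and up to 4 others per list by smallest p (for other cell types only where a result on the 10 genes turned on them), and genes from among the nearest 3 to each of the 10 by centred log2 CPM (pseudocount 0.5), and not all of these are reported here. Other genes named, among them P2ry12, Csf1r, Tubb3, Slc17a7, the Cd3 genes and the class II regulators, were picked after values were seen. Monocyte and neutrophil genes (10 listed, 8 tested, 0 passing by edgeR, 1 at an unadjusted p under 0.05, median log2 fold change -0.88) and red blood cell genes (2 tested, 0 passing, 1 at an unadjusted p under 0.05) were also read. Alternatives were other scalings, filters and tools, an Xist covariate and leaving out each library.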

Additional observations from a re-analysis of the deposited data

How the results depend on the processing

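All 10 genes kept the sign of their log2 fold change in each of 14 alternatives. The count of genes called, 537 over all libraries, was 870 with no filter beyond a total count of 1, 1645 by DESeq2 and 0 by edgeR with Xist as a covariate (1298 at an unadjusted p under 0.05), and ranged from 51 to 4551 when 1 library was left out. It was 51, 81 and 112 without control libraries 1, 2 and 3, 164 and 199 without mutant libraries 1 and 3, and 4551 without mutant library 2. Of the 10 genes, 1 passed over all libraries, 2 by DESeq2, and 0 by edgeR with Xist as a covariate (2 at an unadjusted p under 0.05). When 1 library was left out, 0 to 9 of the 10 passed, 9 only without mutant library 2. Cd4 passed in 9 of 14 alternatives, at log2 fold changes of 2.76 to 3.99 in all 14, with adjusted p of 1.72e-06 by DESeq2 to 0.314 with Xist. Leaving out 1 library gave Lyve1 -1.78 to -0.94, Pf4 -2.27 to -0.88, Mrc1 -1.93 to -0.61, Cd74 -1.87 to -0.50, H2-Aa -1.83 to -0.47, H2-Ab1 -1.80 to -0.46 and Cd163 -0.76 to -0.06. The cause of these changes was not tested. No paired analysis was possible because the labels give no replicate numbers shared between groups.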
